A study of Mus musculus with 5 samples.

Results

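Glutathione peroxidases and peroxiredoxins are the thiol- and selenol-based enzymes that remove hydrogen peroxide and lipid peroxides from cells. The genes were chosen by name, with earlier results of these data known. They were 10 in all: Gpx1, Gpx2, Gpx3, Gpx4, Gpx7, Gpx8, Prdx1, Prdx3, Prdx4 and Prdx6. Each was read from the probe set that carried its symbol alone and had the highest mean signal over the 5 arrays. That mean fixed the probe set and gives no information on the genotypes. Such a probe set was found for 9 of the 10 genes, among 19938 genes measured in this way, and Prdx6 is not analysed here. Both families are larger than this choice. Gpx5, Gpx6 and Prdx2 were read alongside, while Prdx5 is not analysed here.

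The RNA came from mouse embryonic stem (ES) cells, pluripotent cells taken from the early embryo, in asynchronous culture. One group of 3 arrays was wild type (WT) and the other, of 2 arrays, was Dicer-deficient (KO), lacking the ribonuclease that makes mature microRNAs. All cultures grew without feeder cells in an equal mixture of serum medium with the cytokine LIF and a serum-free N2B27 medium with 2i kinase inhibitors. The design text calls the cultures biological replicates. The labels give no cell line, strain, clone or deleted exon, so the loss of Dicer and any other difference between the cells of the groups cannot be told apart. Values are the authors' normalized signals, read as log2, so that a difference of 1 is a factor of 2.

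Glutathione peroxidases pass electrons from glutathione to peroxides. Gpx1 to Gpx4 carry selenocysteine, the selenium form of cysteine, in the active site, whereas Gpx7 and Gpx8 use cysteine and work in the endoplasmic reticulum (ER). Peroxiredoxins use a cysteine that is reduced again by thioredoxin in most members, and are among the abundant proteins of many cells. Gpx4 is the member that reduces lipid hydroperoxides within membranes and so holds back ferroptosis, an iron-dependent cell death. Several genes of both families, Gpx2 and Prdx1 among them, are known targets of NRF2, a transcription factor that binds antioxidant response elements (AREs).

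The stretches before the gene starts are shown for Gpx2, the member with the largest difference between the groups, and for Prdx1, a known NRF2 target whose signal hardly differed between them. They are the 250 bases upstream of the RefSeq start in GRCm38.p6, 5′ to 3′ on the gene's strand, with motif matches in capitals. The Gpx2 window lies at chr12:76795555-76795804 on the minus strand and the Prdx1 window at chr4:116685349-116685598 on the plus strand.
Gpx2: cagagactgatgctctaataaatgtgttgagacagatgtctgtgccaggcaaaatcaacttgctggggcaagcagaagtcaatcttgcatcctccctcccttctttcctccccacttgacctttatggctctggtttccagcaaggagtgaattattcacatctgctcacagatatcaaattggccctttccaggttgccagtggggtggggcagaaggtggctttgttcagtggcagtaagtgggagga
Prdx1: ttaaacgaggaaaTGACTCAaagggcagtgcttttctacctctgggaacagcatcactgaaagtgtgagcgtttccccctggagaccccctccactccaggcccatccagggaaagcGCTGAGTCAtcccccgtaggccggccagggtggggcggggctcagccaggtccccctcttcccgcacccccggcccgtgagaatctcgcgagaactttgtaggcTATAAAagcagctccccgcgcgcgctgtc
The motifs searched on both strands were the ARE core TGACNNNGC, the AP-1 site TGANTCA, the TCF/LEF site CTTTGAT and the TATA box TATAAA. An ARE core and an AP-1 site can share bases, as they do in the Prdx1 window, where the ARE core lies 133 to 125 bases before the start and an AP-1 site 131 to 125 bases before it. Prdx1 has a further AP-1 site 237 to 231 bases and a TATA box 29 to 24 bases before its start. No letters of the Gpx2 window matched any of these motifs, which says nothing of sites outside it. Windows were found for 9 members, 12 windows in all because Gpx4 has several starts. Besides Prdx1, only Prdx3 had a match, to the letters of the TATA box on the opposite strand, 239 to 234 bases before its start. Of 32851 windows of the same length in the reference, 10.2% held an ARE core, 6.75% an AP-1 site, 3.21% the TCF/LEF site and 12.4% a TATA box. These matches are descriptions of the letters and were not tested as binding sites.

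The arrays were first checked against their labels. Dicer1, on chromosome 12, had signals of 8.84, 8.82 and 8.85 in WT cells and 7.20 and 6.84 in KO cells, a log2 change of -1.82 (SE 0.112, limma adjusted p = 0.000129). The sources used here do not say whether its probe set reads the deleted part of the gene. Pou5f1, Nanog and Sox2, which define ES cells, had mean signals of 11.82, 11.54 and 10.24 in WT cells and 11.99, 11.345 and 10.495 in KO cells, far above the median of all values, 5.41. The 5 array medians lay between 5.39 and 5.45. With 5 arrays in all, precision is limited throughout.

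Among the 9 members Gpx2 rose in KO cells and Gpx3 fell, while the other 7 did not pass the test. Gpx2, an epithelial and gastrointestinal form of the enzyme, changed by far the most. The 3 peroxiredoxins and the 2 ER peroxidases each had a change within 0.11 of 0 on the log2 scale. The test was limma's moderated linear model over all 19938 genes, with a call at an adjusted p of 0.05. It called 1 of 9 members higher, where 8.48% of all genes were called higher, and 1 of 9 lower, where 8.6% of all genes were called lower. Either call was made for 17.1% of genes, so that the members as a group were called about as often as genes in general. The median log2 change was 0.06 over the members and 0.01 over all genes. In 4 of the 9 members both KO values lay outside the WT range, which held for 39.9% of all genes.

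**Figure D1:**
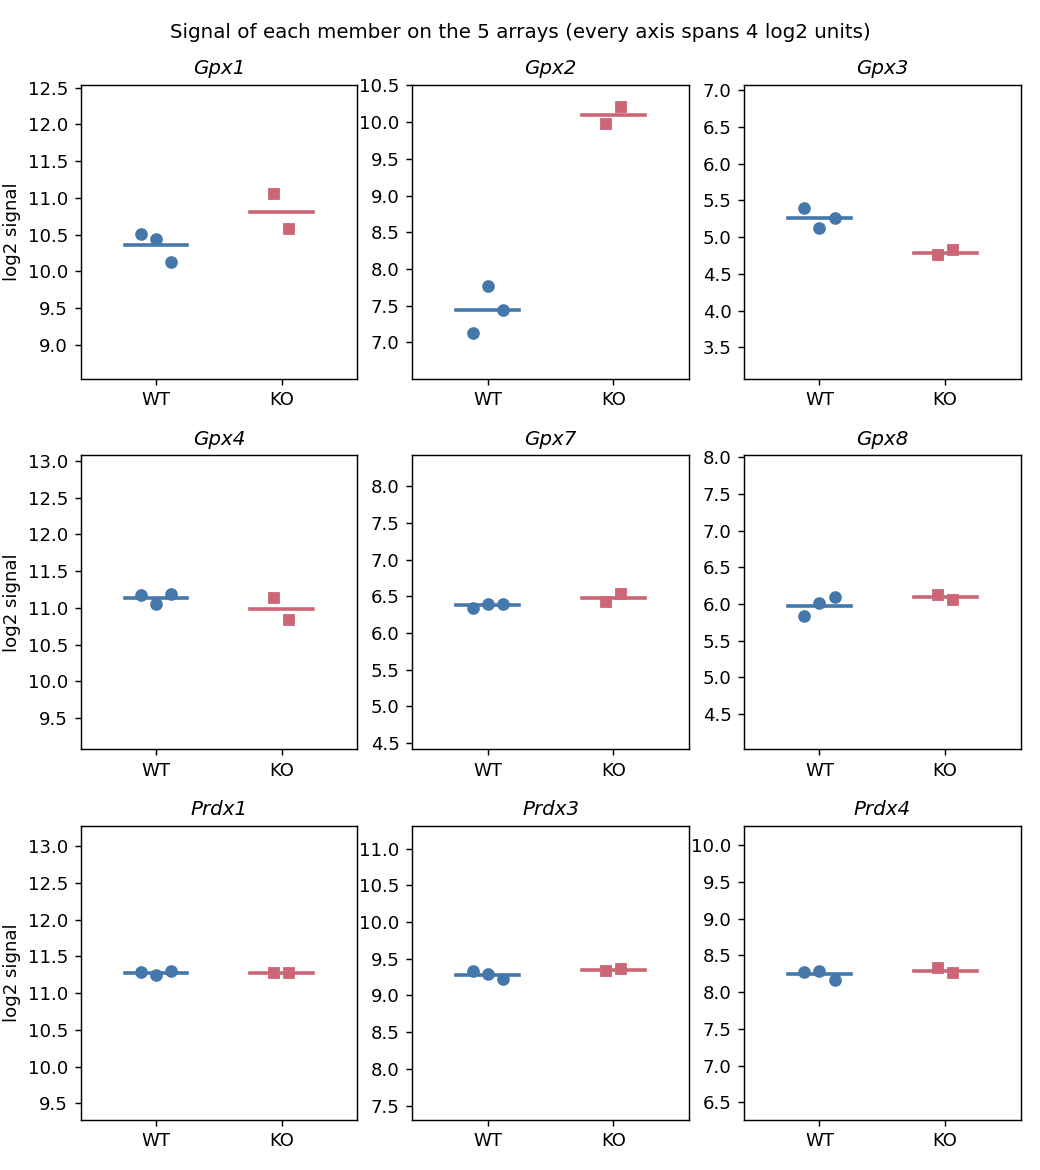
Log2 signal of the 9 measured members on each array, with circles for the 3 WT arrays, squares for the 2 KO arrays and lines at the group means. Every vertical axis spans the same number of log2 units around the gene's own mean. The widest gap between the groups is that of Gpx2, from 7.77 as the highest WT value to 9.98 as the lowest KO value.

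Gpx2 had signals of 7.13, 7.77 and 7.44 in the WT cultures and 9.98 and 10.21 in the KO cultures. Both KO values were more than 2 log2 units above every WT value, and the groups did not come near each other. The log2 change was 2.65 with an SE of 0.176 and a 95% interval of 2.24 to 3.06, a signal 6.27-fold higher in KO cells (limma adjusted p = 0.000146). It was the 15th largest rise of the 19938 genes. The WT cultures differed more for Gpx2 than for most genes, with an SD of 0.32 (n = 3) that exceeded the SD of 98.8% of genes. With any 1 array removed the change stayed between 2.49 and 2.81, with an adjusted p of at most 0.0255. RefSeq also lists Gpx2-ps1, a transcribed pseudogene of Gpx2 on chromosome 7, and whether the Gpx2 probe set reads it was not tested. In whole cultures a change in the RNA of each cell and a change in the share of cells that express the gene cannot be told apart.

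Markers of other cell types were read beside the rise of Gpx2. Of 6 trophectoderm markers 3 were called higher in KO cells, where 8.48% of all genes were. They were Krt8 with a log2 change of 1.54 (adjusted p = 0.000175), Gata3 with 1.23 (adjusted p = 0.000177) and Krt18 with 0.49 (adjusted p = 0.028). The call of Krt18 was lost without WT array 1, WT array 2 or either KO array (adjusted p from 0.105 to 0.258) and with all probe sets tested together (0.0916). Eomes went the other way, with 5.92, 6.08 and 5.56 in WT cells and 5.18 and 5.55 in KO cells, a change of -0.49 that was not called (adjusted p = 0.0977). The summed log2 signal of the 6 genes was 34.63 to 35.28 in WT and 37.73 to 37.83 in KO arrays. Cdx2 and Elf5, which define that lineage, had mean signals of 5.25 and 4.23 in WT cells and 5.31 and 4.295 in KO cells, below the median of all values. Of 7 endoderm markers and 7 fibroblast markers none was called by limma in either direction, and none had an unadjusted p under 0.05. Their summed signals overlapped between the groups, at 35.45 to 37.32 in WT and 35.99 to 36.43 in KO arrays for endoderm and at 35.37 to 36.75 and 36 to 36.31 for fibroblasts. Of 10 ES cell markers 3 were called lower, Klf4, Esrrb and Tdgf1, where 8.6% of all genes were. Esrrb and Tdgf1 had log2 changes of -0.72 and -0.70 (adjusted p = 0.00655 and 0.00168). Under the alternative fits the change of Tdgf1 stayed between -0.78 and -0.61. Klf4 had a log2 change of -0.95, and its call was lost without any of the WT arrays (adjusted p from 0.0504 to 0.0915) or without KO array 2, where the change was -0.59 (0.101), and with all probe sets tested together (0.0712). Esrrb was not called without WT array 2 (adjusted p = 0.0535) or KO array 2 (0.0914). The summed signal of the 10 was 105.23 to 107.16 in WT and 103.06 to 105.48 in KO arrays. The part of these cell types in the rise of Gpx2 was not tested.

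Gpx2 lies on chromosome 12, as Dicer1 does, and its neighbours in gene order were read as well. Rab15, Fntb, Max and Fut8, the 4 nearest measured genes on 1 side, were all called higher, where 8.48% of all genes were. Their log2 changes were 0.61, 0.44, 0.465 and 0.61. Each of the 4 calls was lost without at least 1 of the arrays, while the changes stayed between 0.36 and 0.78. Leaving out a KO array leaves only 1 array in that group, which weakens the test. Rab15 lost its call without KO array 2 (adjusted p = 0.0517), Max without WT array 2 (0.0528), KO array 1 (0.133) or KO array 2 (0.104), and Fut8 without WT array 2 (0.0589) or KO array 1 (0.095). Fntb lost its call without WT array 2, WT array 3 or either KO array (adjusted p from 0.0661 to 0.209) and with all probe sets tested together (0.0731). Gphn, next on that side, had 0.335 (adjusted p = 0.0636). On the other side Churc1, Sptb, Plekhg3, Gm10451 and Ppp1r36 had changes between -0.34 and 0.37, and none passed the test, their adjusted p-values lying between 0.148 and 0.902. The change of Gpx2 exceeded that of every one of these 10 neighbours by more than 2 log2 units. The neighbours were added after their values were seen, and a change of the region as a whole was not tested.

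**Figure D2:**
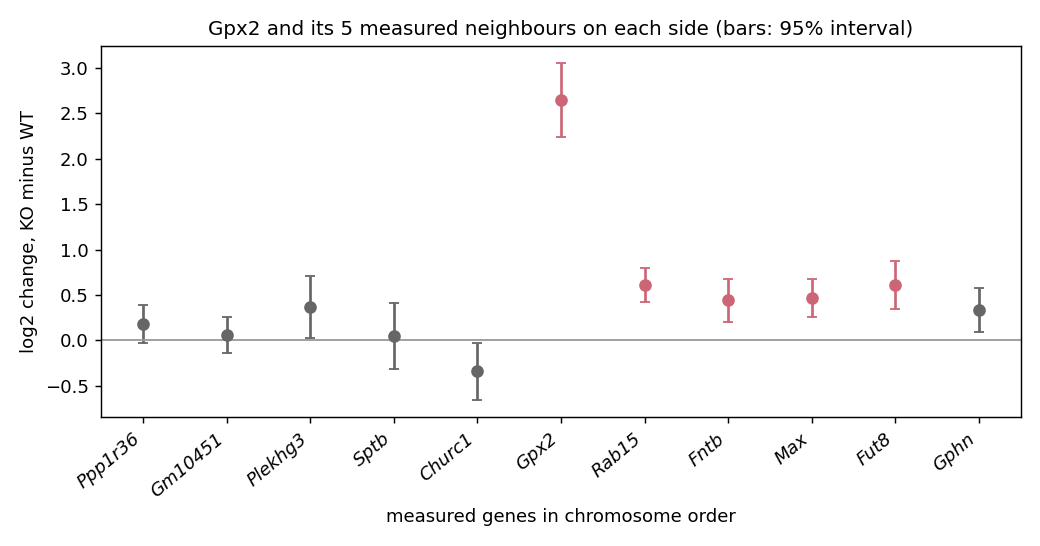
Log2 change (KO minus WT) of Gpx2 and the 5 measured genes on each side of it in the order of chromosome 12, with 95% intervals from limma. Red points passed an adjusted p of 0.05 and grey points did not. Gpx2 stands at 2.65, and the 4 red neighbours stand between 0.44 and 0.61.

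Gpx1, the widely expressed form in cytosol and mitochondria and like Gpx2 a reducer of soluble peroxides, had signals of 10.51, 10.44 and 10.12 in WT cells and 11.05 and 10.57 in KO cells. Both KO values lay above the WT range, the lower of them by only 0.06. These 2 KO values lay further apart (SD 0.339, n = 2) than the group means, which were 10.36 in WT and 10.81 in KO cells. The log2 change was 0.45 (SE 0.166, limma adjusted p = 0.117), with an interval of 0.07 to 0.84 that is not adjusted for the number of genes. It was 0.21 without KO array 1 and 0.69 without KO array 2. When the arrays were quantile normalized again it was 0.51 and passed the test narrowly, at an adjusted p of 0.0497.

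Gpx3, the form secreted into plasma, had signals of 5.40, 5.13 and 5.26 in WT cells and 4.75 and 4.82 in KO cells. The groups did not overlap, and all 5 values lay below the median of all values. The log2 change was -0.48 (SE 0.0979, 95% interval -0.71 to -0.25, limma adjusted p = 0.0144). The signal was not shown to be above background in either group, so no fold is given. The call was lost without KO array 1 (adjusted p = 0.16) and without KO array 2 (adjusted p = 0.117), and when all 35556 probe sets were tested together (adjusted p = 0.054).

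Neighbours of Gpx3 and Gpx1 were likewise added after their values were seen, and a change of either region was not tested. Of all genes 8.6% were called lower and 8.48% higher. Of the 10 measured genes nearest to Gpx3 on chromosome 11, 5 on each side, 3 were also called lower. Anxa6 and Gm2a changed by more than Gpx3. Anxa6, an annexin, had 9.72, 9.80 and 9.56 in WT cells and 8.43 and 7.73 in KO cells, a log2 change of -1.61 (adjusted p = 0.00134). It was -0.89 as the mean of its 2 probe sets. Gm2a, the activator protein of ganglioside breakdown, had 8.69, 8.73 and 8.51 in WT cells and 7.51 and 7.37 in KO cells, a change of -1.20 (adjusted p = 0.000296) that was called under all 14 alternative fits. Cdc42se2 had a change of -0.575 (adjusted p = 0.00302), also further from 0 than that of Gpx3, a call lost without KO array 2 (0.0551). The other 7 had changes between -0.30 and 0.095 and were not called. Of the 10 genes nearest to Gpx1 on chromosome 9, Nicn1 was called lower, with a change of -0.62 (adjusted p = 0.00212), and Rhoa higher, with 0.29 (adjusted p = 0.0448). The call of Rhoa was lost on removal of any one of the arrays (adjusted p from 0.0703 to 0.186), with arrays centred on their medians, with the mean of its probe sets and with all probe sets tested together.

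Gpx4 had signals of 11.17, 11.05 and 11.19 in WT cells and 11.13 and 10.84 in KO cells. KO array 1 lay inside the WT range and KO array 2 below it. The log2 change was -0.15, with a 95% interval of -0.40 to 0.09 (limma adjusted p = 0.445), and with any 1 array removed it stayed between -0.30 and -0.01. A further probe set of Gpx4 gave the same picture at a lower signal, with 10.38, 10.28 and 10.38 against 10.32 and 10.05 and a change of -0.16. The probe sets do not separate the cytosolic, mitochondrial and nuclear forms of Gpx4, and Gpx4 pseudogenes could share signal with them. RefSeq likewise lists pseudogenes of Prdx1 and Prdx2, and whether the probe sets of those genes read them was not tested. By its number, the probe set read for Prdx2 falls among those of chromosome 1, where Prdx2-ps1 lies, while Prdx2 lies on chromosome 8. That read for Prdx1 falls among those of chromosome 16, while Prdx1 lies on chromosome 4. The further probe sets of both genes fall among those of the genes' own chromosomes. Positions of the probe sets were not checked.

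**Figure D3:**
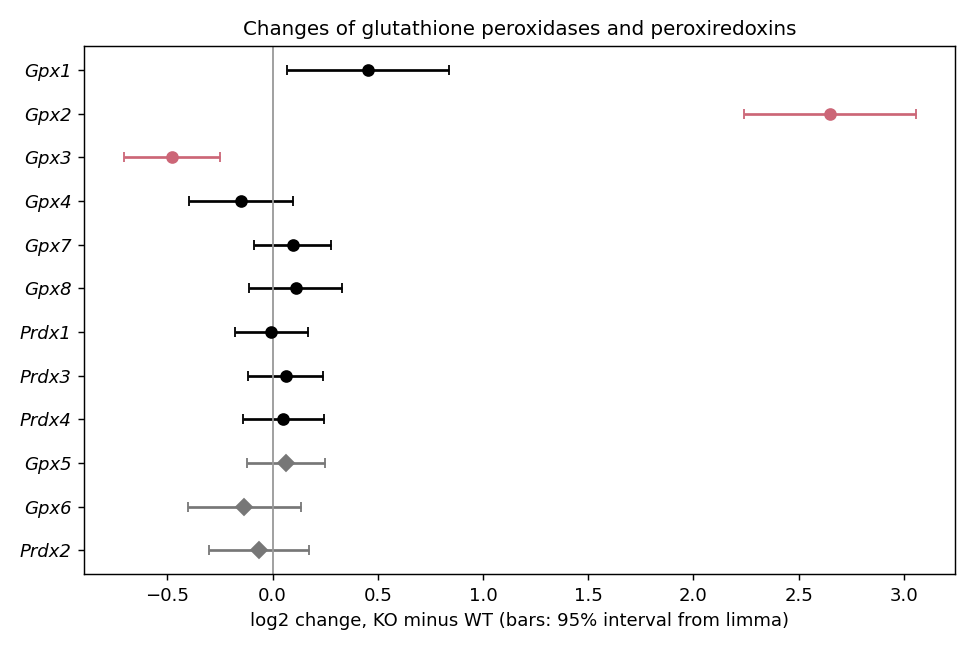
Log2 change (KO minus WT) with its 95% interval from limma, not adjusted for the number of genes. Circles are the 9 measured members, red where the adjusted p was under 0.05, and grey diamonds are the other measured genes of both families. Gpx2 lies at 2.65 and Gpx3 at -0.48, and the intervals of all other genes except Gpx1 include 0.

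Gpx7 and Gpx8 accept electrons from protein disulfide isomerases in the ER and so couple peroxide removal to the folding of secreted proteins. Gpx7 had 6.34, 6.40 and 6.40 in WT cells and 6.42 and 6.53 in KO cells. Its KO values lay above the WT range by 0.02 at the nearest, and the change of 0.095 (95% interval -0.09 to 0.28, adjusted p = 0.539) was not called. Gpx8 had 5.84, 6.01 and 6.09 in WT cells and 6.12 and 6.06 in KO cells, which overlap. Its change was 0.11 (95% interval -0.11 to 0.33, adjusted p = 0.56). For either gene the interval reaches no further than 0.33 on the log2 scale.

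The peroxiredoxins differed least. Prdx1, the main cytosolic form, had 11.29, 11.25 and 11.30 in WT cells and 11.28 and 11.27 in KO cells. Its KO values lay within the WT range, and its change of -0.005 (SE 0.0738) had a 95% interval of -0.18 to 0.17. A further Prdx1 probe set had 11.14, 11.05 and 10.96 against 11.15 and 11.07, a change of 0.06. Prdx3, the mitochondrial form, had 9.33, 9.29 and 9.23 in WT cells and 9.33 and 9.36 in KO cells, with a change of 0.06 (95% interval -0.12 to 0.24, adjusted p = 0.71). Prdx4, the ER form, had 8.28, 8.29 and 8.16 in WT cells and 8.33 and 8.26 in KO cells, with a change of 0.05 (95% interval -0.14 to 0.24, adjusted p = 0.782). The groups overlapped for all 3 genes. None of these intervals, rounded, reaches beyond 0.24 in either direction.

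The other genes of both families showed no called difference. Prdx2, a further cytosolic form that is abundant in red cells, had 11.11, 10.97 and 10.83 in WT cells and 10.96 and 10.85 in KO cells, a change of -0.065 (adjusted p = 0.778). A further Prdx2 probe set was dimmer, with 8.76, 8.58 and 8.45 in WT cells and 8.62 and 8.41 in KO cells, and changed by -0.08. Gpx5 and Gpx6, forms of the epididymis and of olfactory tissue, had mean signals of 3.68 and 5.0 in WT cells and 3.745 and 4.87 in KO cells, below the median of all values. Their changes were 0.065 and -0.13 (adjusted p = 0.702 and 0.556).

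Glutathione peroxidases depend on reduced glutathione, and several genes that supply it were higher in KO cells. Of 13 genes of glutathione supply and reduction 6 rose and 2 fell, the other 5 remaining uncalled. The median log2 change was 0.31, beside 0.01 for all genes. Of all genes 8.48% were called higher and 8.6% lower. This list and the partner lists below were chosen with earlier results of these data known. Me1, a malic enzyme that yields NADPH, went from 8.22, 8.02 and 7.98 to 9.56 and 9.38, 2.63-fold higher (log2 change 1.40, SE 0.104, adjusted p = 0.00021). Gclm, the modifier subunit of the enzyme that starts glutathione synthesis, went from 9.45, 9.27 and 9.37 to 10.50 and 10.53, 2.22-fold higher (adjusted p = 2e-04). Gss, glutathione synthetase, went from 8.26, 8.20 and 8.04 to 9.52 and 9.07, 2.19-fold higher (adjusted p = 0.00166). For these genes the groups were far apart, with no KO value near the WT range.

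Pgd, an NADPH-forming enzyme of the pentose phosphate pathway, rose 2.11-fold from 10.17, 10.26 and 10.08 to 11.25 on both KO arrays. Gsr, which reduces oxidized glutathione, rose 1.57-fold (adjusted p = 0.00157). Gclc, the catalytic partner of Gclm, rose 1.35-fold (adjusted p = 0.00774), a call lost on removal of KO array 1 (0.081) or KO array 2 (0.0563). Glrx, a glutaredoxin, fell by 0.61 on the log2 scale at signals below the median of all values, a call lost on removal of KO array 1 (adjusted p = 0.0899) or KO array 2 (0.0506). Slc3a2, a chain of amino acid transporters, fell by 0.30 (adjusted p = 0.0381). That call did not survive the removal of any single array, WT or KO (adjusted p from 0.0722 to 0.197), or a repeat of the quantile normalization (0.0866). Slc7a11, the cystine-carrying partner of Slc3a2, had a change of 0.31 (adjusted p = 0.166). G6pdx is not analysed here.

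The thioredoxin system reduces peroxiredoxins, and the list read for it also counted the sestrins and Txnip. It had 3 of 11 genes higher and 0 lower by limma, with a median of 0.10. Sesn3, a sestrin, rose 1.87-fold from 7.27, 7.26 and 7.35 to 8.17 and 8.22 (adjusted p = 0.000364). The reductases Txnrd1 and Txnrd2, of cytosol and mitochondria and themselves selenoproteins, rose 1.47-fold and 1.45-fold (adjusted p = 0.00456 and 0.00846). The call of Txnrd1 was lost without KO array 2 (adjusted p = 0.0651) and that of Txnrd2 without KO array 1 (0.123) or KO array 2 (0.0699). Txnrd3 had a change of 0.375 (adjusted p = 0.0521). Srxn1, the sulfiredoxin that repairs overoxidized peroxiredoxins, had a change of 0.24 (adjusted p = 0.0839). Txn1, the cytosolic thioredoxin, had 0.10 (adjusted p = 0.534). With array weights 5 genes of the list were called higher and 2 lower, and with dim genes left out 4 and 2. At an unadjusted p under 0.05, 3 genes were lower, each with both KO values below the WT range. They were Txnip with a change of -0.40 (limma adjusted p = 0.0546), Sesn2 with -0.28 (0.0616) and Txn2 with -0.26 (0.13).

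Of the 3 superoxide dismutases and catalase, which make and remove hydrogen peroxide, Cat rose 1.68-fold from 9.02, 8.82 and 8.88 to 9.75 and 9.56 (log2 change 0.75, adjusted p = 0.00216). Without KO array 1 its adjusted p was 0.0573. Sod1, Sod2 and Sod3 had changes of 0.14, 0.21 and 0.03 and were not called.

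Selenocysteine insertion is needed to translate Gpx1 to Gpx4. Of 11 genes of this machinery and of selenium supply 2 were lower and 0 higher by limma, with a median of -0.085 (and 0 higher at an unadjusted p under 0.05). Pstk, a kinase that acts on the tRNA for selenocysteine, fell by 0.72 on the log2 scale from 5.73, 5.93 and 6.06 to 5.18 and 5.20 (adjusted p = 0.00377). Sephs2, which makes the selenium donor, fell by 0.59 from 9.01, 8.98 and 8.84 to 8.29 and 8.41 (adjusted p = 0.00383). Both calls were lost without KO array 1 (adjusted p = 0.0887 and 0.0747) and without KO array 2 (0.0809 and 0.0502). Secisbp2 and Eefsec, which bring the selenocysteine tRNA to the ribosome, had changes of -0.085 and 0.10.

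A list of oxidative protein folding, with some partners of Prdx4, Gpx7 and Gpx8 in the ER, had 2 of 10 genes higher and 1 lower. Its median was 0.06. Ero1a, the oxidase that makes hydrogen peroxide while it forms disulfides, fell by 0.88 on the log2 scale from 8.75, 8.69 and 8.93 to 7.85 and 7.97, a 1.84-fold lower signal (adjusted p = 0.00104). Its relative Ero1b had a change of -0.035. The sulfhydryl oxidases Qsox2 and Qsox1 rose by 0.66 and 0.37 (adjusted p = 0.0161 and 0.0179). Both of these calls were lost without WT array 2 (0.0756 and 0.0598), without KO array 1 (0.205 and 0.129) and without KO array 2 (0.16 and 0.101), and that of Qsox1 also without WT array 1 (0.055). With all probe sets tested together neither was called, and with the arrays quantile normalized again 4 genes of the list were called higher. The isomerases P4hb, Pdia3, Pdia4 and Pdia6 had changes between -0.18 and 0.26 and were not called.

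**Figure D4:**
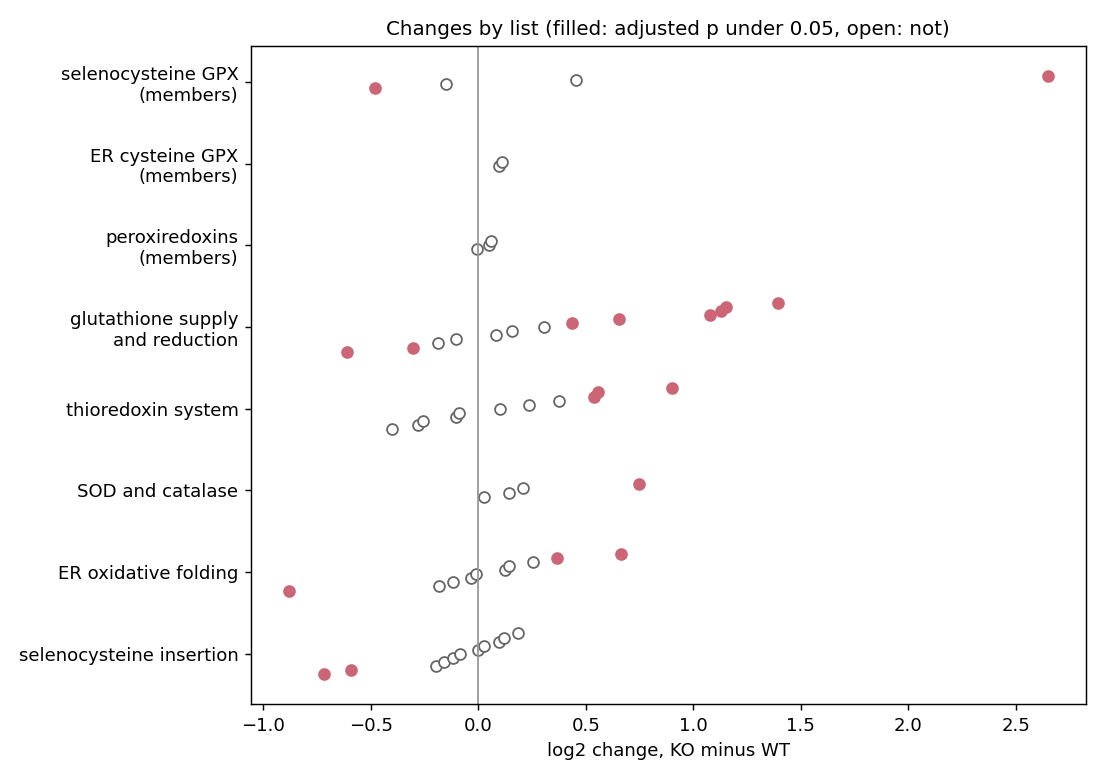
Log2 change (KO minus WT) of each measured gene in the 3 groups of members and the 5 lists of partner genes, 1 point a gene, spread vertically only for legibility. Filled points passed an adjusted p of 0.05. Points of the glutathione supply list reach 1.40, and those of the peroxiredoxins lie between -0.005 and 0.06.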

How the data were processed

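Labelled cRNA from 5 cultures was hybridised to Affymetrix whole-transcript arrays, per the labels' protocols. The authors deposited 1 table of normalized log2 signals for 35556 probe sets, rounded to 2 decimals. Background correction, normalization and log base are not given in the sources used here. The log base was read as 2 from the range of the values, and another base would rescale every change. Signal over background was not analysed here.

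Arrays were grouped by their titles. Of the probe sets, 21789 had 1 gene symbol in the platform annotation, 1621 several and 12146 none. These gave 19938 genes, of which 999 had several probe sets and 19856 were found by identifier in the GRCm38.p6 gene table. Sequences are from RefSeq.

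The genes and lists were chosen with earlier results of these data known. KO was compared with WT by limma 3.58.1 in R 4.3.3 (lmFit and eBayes, no covariate, 3 residual and 4.545 prior degrees of freedom), with Benjamini-Hochberg adjustment over all genes at 0.05. SEs and 95% intervals are limma's moderated ones. The genes named were the members, the measured relatives, up to 4 of the largest called changes of each list, and fixed checks. Genes beyond these, such as neighbours of Gpx1, Gpx2 and Gpx3 and uncalled partners, were chosen after their values were seen. The fit was tested on simulated data before use. Figures used Python 3.11.15 and matplotlib 3.10.9. Alternatives were 2 normalizations, a filter on dim genes, trend, robust moderation, array weights, a replicate block, 2 ways of using probe sets, a minimum change, and leaving out each array.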

Additional observations from a re-analysis of the deposited data

How the results depend on the processing

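The rise of Gpx2 passed the test under all 14 alternative fits, with log2 changes from 2.49 to 2.81. Under them the 7 members that were not called stayed so, except Gpx1 when the arrays were quantile normalized again, which made 2 members called higher. As each array was left out, 1 member was called higher in every case and 0 to 1 lower. Gpx3 was not called with dim genes left out (where it was not tested), with all probe sets, with the replicate block (adjusted p = 0.12) or with a minimum change of 1, which made 0 members called lower in each. Over all genes 3404 were called, and 894 with the replicate block, 458 with the minimum change and 972 to 2953 as each array was left out.

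The replicate numbers of the titles were not shown to pair cultures. Over 19938 genes the deviations of same-numbered WT and KO arrays correlated by 0.05 for number 1 and 0.01 for number 2. The differently numbered WT array 3 and KO array 2 gave 0.04. With 2 KO arrays their deviations from the KO mean mirror each other. These correlations are therefore not independent and cannot settle whether the cultures were paired. With the replicate block Gpx2 had a change of 2.645 (adjusted p = 0.0406). WT array 3 has no KO partner in that block, so the change rests on the arrays numbered 1 and 2. The test is weaker for it, and a call lost there does not show that a gene is unchanged. Partner genes not called with that block were Gclc, Gsr, Gss, Txnrd1, Txnrd2, Pstk, Sephs2, Qsox1, Qsox2 and Slc3a2. Neighbours and markers not called with it were Rab15, Fntb, Max, Fut8, Anxa6, Cdc42se2, Rhoa, Krt18, Klf4 and Esrrb (adjusted p from 0.0538 to 0.13). No alternative moved the median of all genes beyond 0.025 on the log2 scale. Signals below the median of all values in both groups limit Gpx3, Gpx5, Gpx6, Glrx, Slc7a11, Sod3 and Ero1b, and Cdx2 and Elf5 among the markers.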
